A study of Mus musculus with 6 samples.

Results

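The proteasome genes of the mouse brain were examined in animals lacking TRMT1L and in wild-type animals. All protein-coding genes of the GENCODE M21 annotation whose symbol begins with Psma, Psmb, Psmc, Psmd, Psme or Psmg were taken, which gave 49 genes of the 55450 in the deposited tables. The genes were picked by name and not by a measured value. It brings in Psmc3ip, a partner protein of the Psmc3 subunit that works in meiotic recombination and is no proteasome subunit. The study sequenced long RNA, after short molecules had been removed by size, from whole brain in 6 libraries, 3 labelled WT and 3 labelled TRMT1L KO. TRMT1L resembles the tRNA guanosine methyltransferase TRMT1. The series calls the libraries biological triplicates. Age, sex, strain and the way the allele was made are not given in the sources used here, and neither is whether the loss was confined to any cell type.

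Proteins marked with chains of ubiquitin are destroyed by the 26S proteasome, a barrel closed by a cap at one or both ends. The barrel, or 20S core, stacks rings of alpha subunits, which gate the entrance, on rings of beta subunits, 3 of which (Psmb5, Psmb6 and Psmb7) cut peptide bonds. The 19S cap recognises ubiquitin, removes it and unfolds the substrate with a ring of ATPases. Interferon replaces the cutting subunits with Psmb8, Psmb9 and Psmb10, which makes the immunoproteasome, and also induces the activator cap genes Psme1 and Psme2. In neurons the proteasome also takes part in the turnover of synaptic proteins.

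Each library held between 78341827 and 89979690 reads, of which 31201119 to 36145961 were counted in genes. Trmt1l (ENSMUSG00000053286.11, GRCm38 chr1:151428542-151458161) had counts of 1279, 1034 and 1158 in WT and of 93, 101 and 106 in KO. Its log2 fold change was -3.58 (SE 0.0813, adjusted p = 6.95e-10 by the quasi-likelihood test of edgeR, Benjamini-Hochberg adjusted). All 7 neuronal markers listed were measured in every library, with a summed level of at least 5480 CPM (counts scaled to a common depth). Beside 7.92% of all genes tested, cell type markers had an unadjusted p under 0.05 in 3 of 5 astrocyte (2 higher, 1 lower in KO), 3 of 5 choroid plexus (3 higher), 1 of 5 oligodendrocyte (lower), 1 of 6 microglial (lower), 1 of 4 blood (higher) and 0 of 7 neuronal genes, and none of these passed the adjusted threshold. Gfap, an astrocyte marker, was at 248 CPM in KO library 3 and at 115 to 140 CPM in the other libraries. The part of these cells in the proteasome results was not tested.

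Levels were first compared between the parts of the particle, as counts per kilobase of merged exons at a common depth (RPKM), so that genes of different length can be set side by side. The constitutive subunits had means over the 6 libraries between 11.0 and 62.5 RPKM. Leaving out Psma8, the testis form of an alpha subunit, the 7 alpha subunits ran from 12.4 RPKM for Psma2 to 36.9 RPKM for Psma6, a span of 2.97-fold. The 7 beta subunits ran from 11.0 RPKM for Psmb3 to 36.9 RPKM for Psmb2, a span of 3.36-fold. The 6 ATPases of the cap spanned 4.63-fold, from 13.5 RPKM for Psmc2 to 62.5 RPKM for Psmc5, the highest of the 49 genes. The 11 other cap subunits spanned 3.50-fold, from 11.0 RPKM for Psmd11 to 38.5 RPKM for Psmd2. Every one of these subunits had a higher level than each of the 3 immunoproteasome subunits and each of the 7 assembly factors in the stranded counts. In unstranded counts Psmb7 was at 7.52 RPKM, against 17.2 RPKM in stranded ones, and below Psmb10 at 8.41 RPKM.

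Most accessory genes lay below that range. The assembly factors ran from 0.759 RPKM for Psmg3 to 5.37 RPKM for Psmd5, with a median of 4.08 RPKM. Of the immunoproteasome subunits, Psmb10 was at 7.81 RPKM, Psmb8 at 0.821 RPKM and Psmb9 at 0.385 RPKM. The thymus subunit Psmb11 was at 0.0351 RPKM, and Psma8 was at 0.143 RPKM. Among the activators, Psme3 and Psme4 were in the range of the constitutive subunits, with 27.1 and 14.7 RPKM, and the interferon-induced Psme1 and Psme2 were lower, with 6.91 and 6.0 RPKM. These levels, and the order of some genes within a part, depend on the length used. With the longest transcript in place of the merged exons, the median over the WT libraries went from 16.2 to 28.4 RPKM for the alpha ring, from 18.0 to 31.2 for the beta ring and from 6.92 to 11.0 for the activators.

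**Figure D1:**
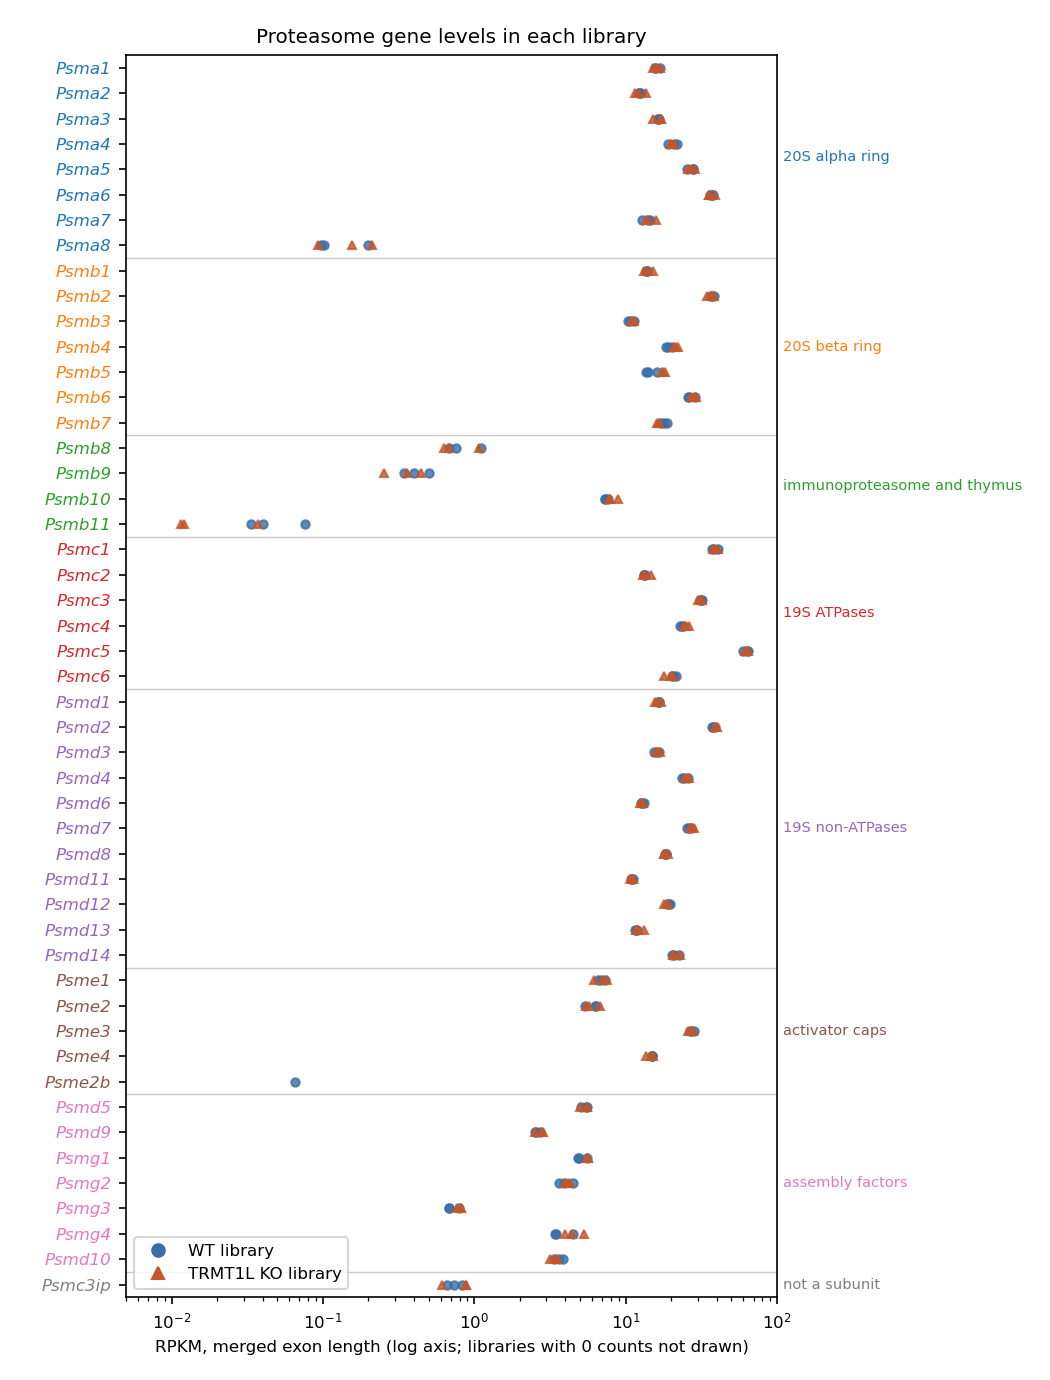
Level of each of the 49 genes in each library, in RPKM on a log axis, with circles for the WT and triangles for the KO libraries. The core and cap subunits other than Psma8 lie between 10.4 RPKM (Psmb3, WT library 3) and 64.8 RPKM (Psmc5, WT library 1), and the immunoproteasome, assembly and testis or thymus genes lie to its left.

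The comparison of KO with WT asks whether any of these genes differs in brain without TRMT1L. No proteasome gene passed the test. Of the 49 genes, 47 had enough counts to be tested, and 0 of the 47 had an adjusted p under 0.05, where 2 of the 21237 genes tested did (0.00942%). The lowest adjusted p was 0.576, and DESeq2 also gave 0. At an unadjusted p under 0.05 there were 3 (Psmb5 and Psmb4 higher, Psmb7 lower in KO), or 6.38% of the 47, beside 7.92% of all genes tested (4.54% higher and 3.38% lower in KO). The 3 KO libraries lay wholly on one side of the 3 WT libraries for 6 of the 47, or 12.8% (4 higher and 2 lower in KO), beside 14.4% of all genes tested (7.46% higher and 6.97% lower). Both shares are near the background of the whole table and are no result about proteasome genes. The median log2 fold change was 0.0061 over the 47 genes and 0.00013 over all genes tested. The first ran from -0.0063 to 0.037 when each library was left out in turn and was 0.034 with a correction for GC content, so its sign is not settled.

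The data bound the differences closely for most of the particle. Log2 fold changes ran from -0.23 for Psmb9 to 0.29 for Psmb5, and the median of their sizes was 0.048, against 0.085 over all genes tested. For 35 of the 47 genes the 95% confidence interval lay within 0.25 of 0 on the log2 scale, as it did for 7926 of the 21237 genes tested. The median SE was 0.058 over the 47 genes and 0.10 over all genes, and 38 of the 47 had a WT mean of at least 10 CPM. The summed level of the 49 genes was 2184 ± 24.4 CPM for WT and 2201 ± 60.2 CPM for KO (SD, n = 3 per group). The KO libraries, at 2264, 2193 and 2145 CPM, enclosed the WT libraries, at 2210, 2162 and 2179 CPM.

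**Figure D2:**
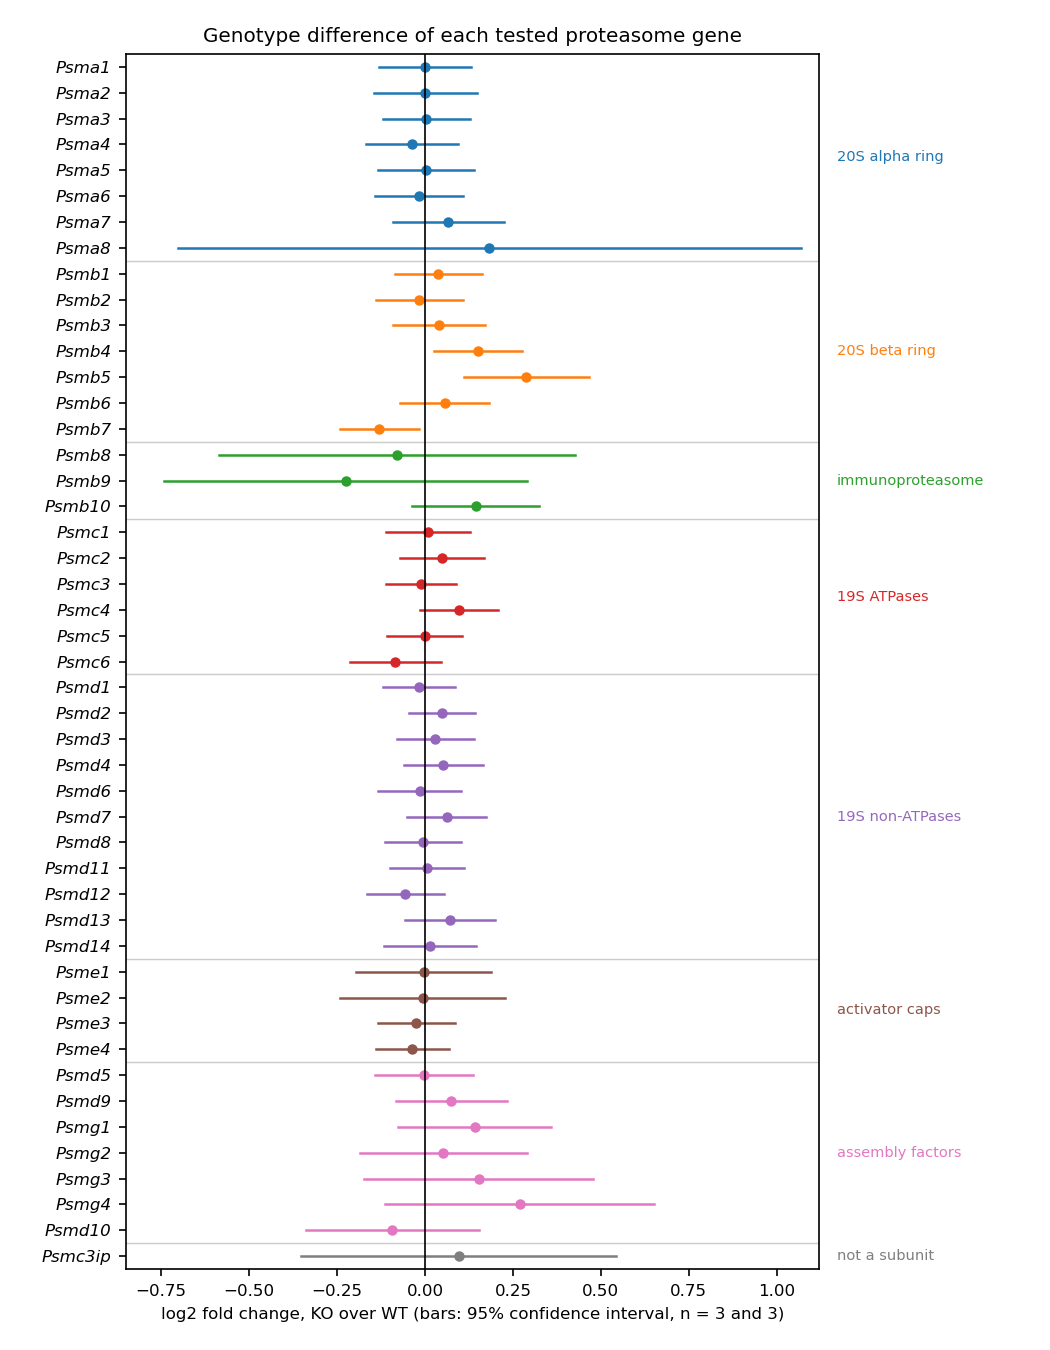
Log2 fold change of KO over WT for the 47 genes tested, grouped by role, with 95% confidence intervals from edgeR's quasi-likelihood fit (n = 3 and 3). The intervals of the 17 cap subunits all lie between -0.21 and 0.21, and those of the scarce genes Psma8, Psmb8, Psmb9 and Psmg4 are wider.

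No alpha subunit differed between the genotypes beyond the spread of its replicates. None of its 8 genes had an unadjusted p under 0.05 and none had groups that did not overlap. Their median log2 fold change was 0.0019 (-0.034 to 0.039 with each library left out in turn), and the 7 intervals without Psma8 lay between -0.17 and 0.22. Psma6, the alpha subunit with the most transcript per length, had 46.0, 46.7 and 44.6 CPM in WT and 48.3, 43.9 and 43.5 CPM in KO. The KO values enclosed the WT values, and the log2 fold change was -0.016 (SE 0.057). Psma7 had 44.4, 39.4 and 43.3 CPM in WT and 48.9, 41.9 and 42.2 CPM in KO, a log2 fold change of 0.066 (SE 0.072). It was -0.012 without KO library 1, 0.018 without WT library 2, 0.10 without WT library 1, KO library 2 or KO library 3, and -0.0099 with a correction for GC content, so that its direction is not settled. KO library 1 was the highest of the 6 for 5 of the 8 alpha genes. Psma8 had 18, 8 and 8 counts in WT and 8, 13 and 19 in KO, too few to tell a difference.

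The 3 genes with an unadjusted p under 0.05 were beta subunits, 3 of the 7 tested (42.9%, beside 7.92% of all genes tested), and whether they gather in that ring was not tested. Psmb5 (ENSMUSG00000022193.7, GRCm38 chr14:54614119-54618022, minus strand) encodes the subunit that cuts after hydrophobic residues. It had 14.4, 12.3 and 12.6 CPM in WT and 15.9, 15.7 and 16.5 CPM in KO. Every KO library was above every WT library, and WT library 1 stood closest to the KO group. The KO mean was 22.1% higher (95% confidence interval 7.89% to 38.2%), a log2 fold change of 0.29 (SE 0.082, unadjusted p = 0.00438, adjusted p = 0.576 by edgeR).

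Psmb4 (ENSMUSG00000005779.12, chr3:94884093-94886961, minus strand), a beta subunit without cutting activity, had 39.8, 36.2 and 36.9 CPM in WT and 43.1, 41.8 and 40.5 CPM in KO. The lowest KO library was just above the highest WT library. The log2 fold change was 0.15 (SE 0.058, unadjusted p = 0.023, adjusted p = 0.593 by edgeR). Psmb7 (ENSMUSG00000026750.6, chr2:38588036-38644087, minus strand), which cuts after basic residues, differed the other way. It had 64.4, 58.9 and 61.7 CPM in WT and 56.5, 55.3 and 57.2 CPM in KO, so that all KO libraries were below all WT libraries. Its log2 fold change was -0.13 (SE 0.052, unadjusted p = 0.0281, adjusted p = 0.606 by edgeR), and with a correction for GC content it was -0.060 with an unadjusted p of 0.281. When each library was left out in turn, Psmb5 kept an unadjusted p under 0.05 each time, with log2 fold changes of 0.25 to 0.36. Psmb4 did not without WT library 2 or 3 or KO library 1 (log2 fold changes 0.12, 0.14 and 0.13), and Psmb7 did not without WT library 1 or 3 or KO library 1 or 2 (-0.096, -0.13, -0.13 and -0.12). Without WT library 2 and KO library 3 together, Psmb5 was at 0.23 with an unadjusted p of 0.059.

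The other beta subunits had smaller values. Psmb6, the subunit that cuts after acidic residues, had a log2 fold change of 0.056 (SE 0.058). Psmb2, the most abundant of the ring per merged exon length, had 45.8, 43.9 and 44.4 CPM in WT and 46.4, 44.4 and 41.7 CPM in KO. Its log2 fold change was -0.016 (SE 0.056). Psmb1 and Psmb3 had log2 fold changes of 0.038 and 0.040. The 3 cutting subunits thus gave values of 0.29, 0.056 and -0.13, and the median of the ring was 0.040.

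**Figure D3:**
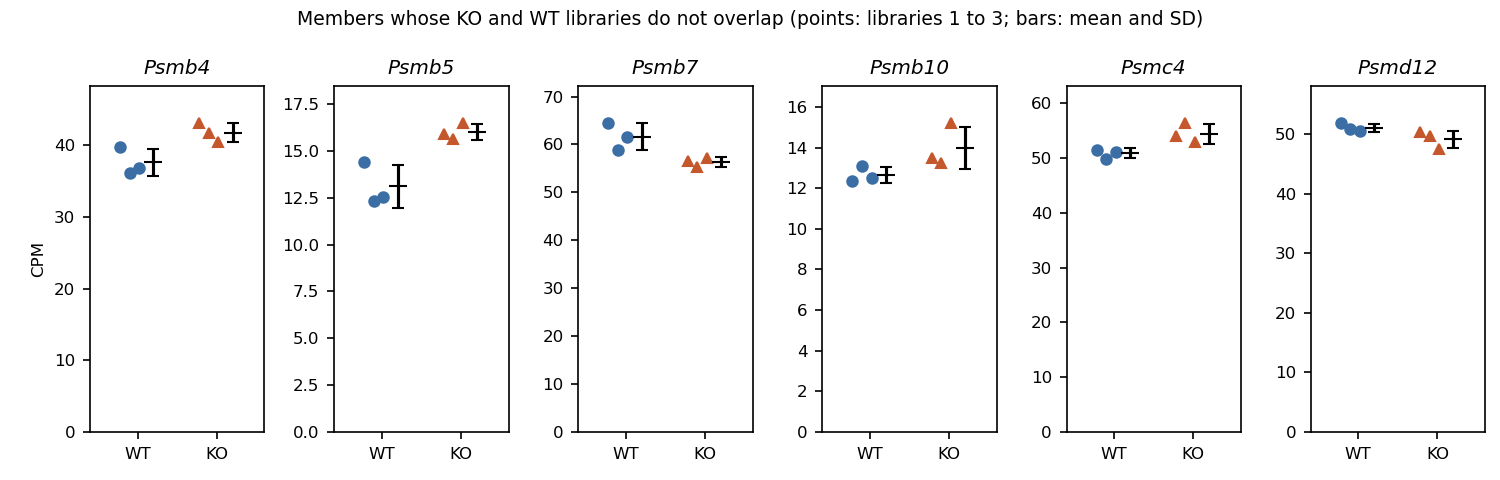
CPM in each library for the 6 genes whose KO and WT libraries do not overlap (12.8% of 47, beside 14.4% of all genes tested), with the mean and SD of each group. Psmb4, Psmb5, Psmb10 and Psmc4 are higher and Psmb7 and Psmd12 lower in KO, and none of the 6 passed the adjusted threshold.

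Psmb5 is also a gene whose reads can be shared with copies elsewhere. Of the 50-base stretches of its exons, 57.1% occur in the exons of other annotated genes, namely 2 processed pseudogenes (Gm3375 and Psmb5-ps) and the microRNA gene Mir686, which lies inside it. Those 3 genes held 0 to 2 counts in any library. Among the 47 genes tested, 10 shared at least 10% of their 50-base stretches, among them Psma5 with 55.4%, Psma4 with 31.5% and Psmd2 with 26.1%. Part of this sharing is with genes at the same place, as for Psma5 with 1700010K24Rik, Psmd13 with Sirt3 and Psmc3ip with Mlx. Reads that fit several places equally well were left out of the deposited counts, so the levels of genes with copies elsewhere are uncertain.

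Psmb8 and Psmb9 were scarce and Psmb10 was not, and the 3 immunoproteasome subunits had no shared direction. Psmb8 (ENSMUSG00000024338.15, chr17:34197721-34201454, plus strand), the interferon-induced counterpart of Psmb5, had 2.31, 3.73 and 2.55 CPM in WT and 2.30, 2.14 and 3.62 CPM in KO. WT library 2 and KO library 3 were the highest, and the groups overlapped. The log2 fold change was -0.080 (SE 0.231), and it was 0.15 without WT library 2 and -0.36 without KO library 3. Psmb9 (ENSMUSG00000096727.3, chr17:34181987-34187764, minus strand), the counterpart of Psmb6, had 1.26, 1.85 and 1.46 CPM in WT and 1.32, 0.921 and 1.63 CPM in KO, a log2 fold change of -0.23 (SE 0.236). It was -0.036 without KO library 2, -0.067 without WT library 2, -0.35 without WT library 1 and -0.43 without KO library 3. In whole brain, fewer cells of a type and less RNA per cell cannot be told apart.

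Psmb10 (ENSMUSG00000031897.9, chr8:105935735-105938444, minus strand), the counterpart of Psmb7, was more abundant than both. It had 12.4, 13.1 and 12.5 CPM in WT and 13.5, 13.2 and 15.2 CPM in KO. The groups did not overlap, by a margin of 13.2 against 13.1 CPM, and KO library 3 stood above the rest. The log2 fold change was 0.14 (SE 0.082, unadjusted p = 0.106, adjusted p = 0.692 by edgeR). It was 0.081 without KO library 3 and 0.075 with a correction for GC content. Psmb11, which belongs to the thymus, had 7, 5 and 12 counts in WT and 2, 6 and 2 in KO, and was too low to be tested.

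Each immunoproteasome subunit was also set against the subunit it replaces, per length and within each library. Psmb8 stood at 4.26%, 8.04% and 5.41% of Psmb5 in WT and at 3.85%, 3.63% and 5.85% in KO. Psmb9 stood at 1.2%, 1.92% and 1.54% of Psmb6 in WT and at 1.25%, 0.889% and 1.66% in KO. Psmb8 and Psmb9 were thus a small share of their counterparts in every library. Psmb10 stood at 38.5%, 44.7% and 40.6% of Psmb7 in WT and at 48.0%, 48.0% and 53.3% in KO. The ratio was 41.3% ± 3.13 for WT and 49.8% ± 3.04 for KO (SD, n = 3 per group), and the groups did not overlap. Psmb10 had the higher and Psmb7 the lower KO values, as given above. Both log2 fold changes were smaller in size with a correction for GC content. The longest transcript has a GC content of 56.5% for Psmb10 and 40.8% for Psmb7. The ratio was not corrected for it and was not tested, and the share of other gene pairs with non-overlapping ratios was not counted. The WT means of these ratios depend on the counting and the length. Counting reads without regard to strand moved them to 2.35% for Psmb8 and 102% for Psmb10, and the longest transcript as length moved them to 10.5% for Psmb8 and 1.02% for Psmb9.

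Psmb8 and Psmb9 varied between libraries together with interferon and antigen presentation genes, and across genotype. WT library 2 and KO library 3 were the 2 highest of the 6 libraries for Psmb8, for Psmb9 and for 15 of 18 listed interferon and antigen presentation genes, a pattern noticed after the values were seen. The same held for Psme2 and for the cap subunits Psmd3 and Psmd8, which makes 5 of the 47 proteasome genes tested (10.6%), and for 7.87% of all genes tested. Tap1, the peptide transporter encoded next to Psmb9, had 3.38, 6.25 and 4.22 CPM in WT and 4.03, 2.64 and 5.84 CPM in KO. B2m, the light chain of class I molecules, had 55.8, 92.5 and 62.1 CPM in WT and 53.0, 48.3 and 71.2 CPM in KO. Within WT, library 2 was highest for 18 of the 18 genes, and within KO, library 3 was. Between genotypes, 0 of the 18 had an unadjusted p under 0.05, beside 7.92% of all genes tested, and their median log2 fold change was -0.046.

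Some microglial markers were high in those libraries too. WT library 2 and KO library 3 were the 2 highest for 4 of 6 of them (Cx3cr1, Csf1r, C1qa and Aif1, and not P2ry12 or Tmem119), for 2 of 6 leukocyte markers and for 0 of 5 endothelial and 0 of 7 neuronal ones. The 2 leukocyte markers were Ptprc and Cd3e, and Cd3e, with 3 to 7 counts per library, was too low to be tested. Of the 6 leukocyte markers, 3 had enough counts for the test. The summed microglial markers ran from 152 to 187 CPM in WT and from 146 to 175 CPM in KO, and the summed leukocyte markers from 8.52 to 11.1 CPM in WT and from 5.32 to 11.1 CPM in KO. No marker of either list was at 0 in all libraries. The part of these cells in the levels of Psmb8 and Psmb9 was not tested. With both libraries left out, the log2 fold changes were -0.13 for Psmb8 and -0.27 for Psmb9.

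**Figure D4:**
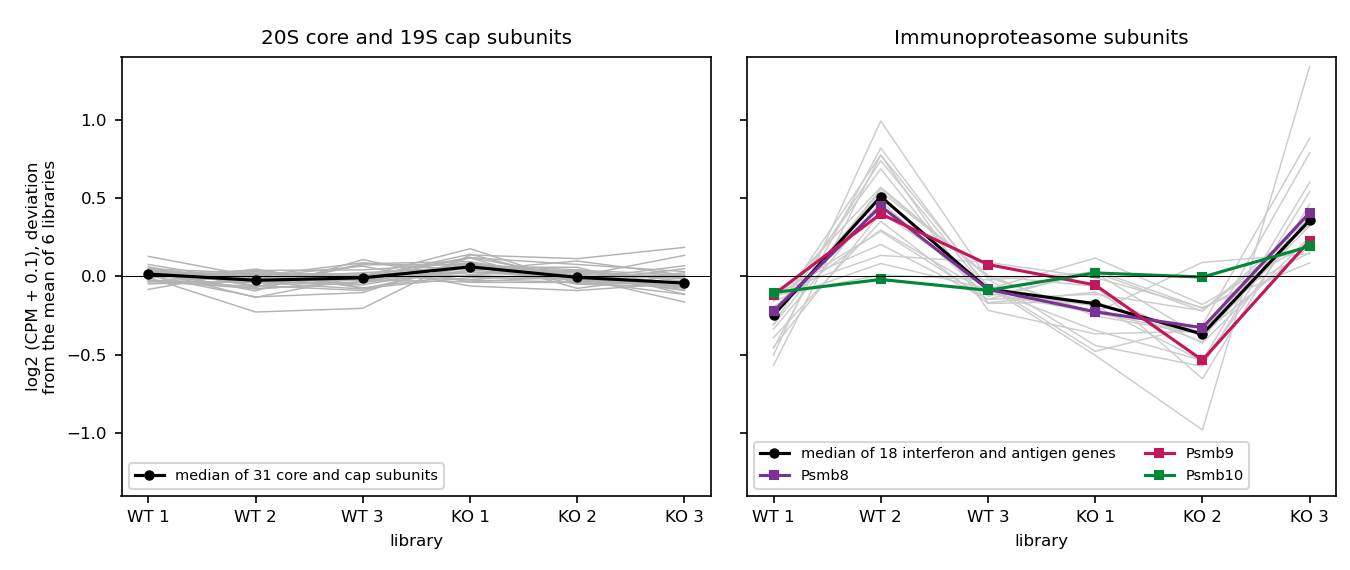
Deviation of each library from the mean of the 6, on the log2 (CPM + 0.1) scale, for core and cap subunits other than Psma8 (left; grey lines are genes, black their median) and for Psmb8, Psmb9 and Psmb10 with 18 interferon and antigen presentation genes (right; grey lines, black their median). Psmb8 is 0.45 above its mean in WT library 2 and 0.41 above it in KO library 3, and the median of the core and cap subunits stays near 0, with Psmb5 at -0.23 in WT library 2 and 0.19 in KO library 3.

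The ATPases of the cap, which form the ring that unfolds substrates, differed little between the genotypes. None of the 6 had an unadjusted p under 0.05, and all 6 intervals lay within 0.25 of 0. Psmc5 had 90.3, 83.4 and 87.9 CPM in WT and 85.9, 89.2 and 86.4 CPM in KO, with group means of 87.2 CPM each. Psmc4 had 51.5, 49.8 and 51.1 CPM in WT and 54.0, 56.3 and 52.8 CPM in KO. Its groups did not overlap, and its log2 fold change was 0.097 (SE 0.050, unadjusted p = 0.0788, adjusted p = 0.655 by edgeR). Psmc6 had the value farthest on the other side, -0.084 (SE 0.059), with KO library 3 the lowest at 62.8 CPM. Psmc1, Psmc2 and Psmc3 had log2 fold changes of 0.0086, 0.048 and -0.012.

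The other cap subunits include the scaffold proteins Psmd1 and Psmd2, the ubiquitin receptor Psmd4 and the deubiquitinase Psmd14. None of these 11 genes had an unadjusted p under 0.05, and all 11 intervals lay within 0.25 of 0. Psmd2 (ENSMUSG00000006998.16, chr16:20651652-20663414, plus strand) had 157, 152 and 150 CPM in WT and 162, 156 and 156 CPM in KO, a log2 fold change of 0.048 (SE 0.043) with overlapping groups. Psmd7, the inactive partner of Psmd14, had 61.5, 57.3 and 59.2 CPM in WT and 63.8, 61.9 and 60.2 CPM in KO, a log2 fold change of 0.062 (SE 0.051). Psmd12, a structural lid subunit, had 51.8, 50.8 and 50.6 CPM in WT and 50.3, 49.6 and 47.5 CPM in KO. Its groups did not overlap, and its log2 fold change was -0.056 (SE 0.050, unadjusted p = 0.29). Psmd14 and Psmd4 had log2 fold changes of 0.014 and 0.052, and the median of the 11 was 0.014 (0.00010 to 0.026 with each library left out in turn).

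Activator caps open the core without ubiquitin recognition. None of the 4 tested had an unadjusted p under 0.05, and all 4 intervals lay within 0.25 of 0. Psme3, the nuclear activator, had 79.5, 83.1 and 79.0 CPM in WT and 81.8, 80.1 and 75.6 CPM in KO, a log2 fold change of -0.025 (SE 0.050). Psme4, a large nuclear activator linked to histone breakdown, had 125, 124 and 125 CPM in WT and 124, 126 and 115 CPM in KO, a log2 fold change of -0.036 (SE 0.047). KO library 3 was the lowest for both. For the interferon-induced pair, Psme1 had 14.6, 15.1 and 16.2 CPM in WT and 15.6, 13.6 and 16.6 CPM in KO, and Psme2 had 11.0, 11.3 and 9.51 CPM in WT and 9.67, 10.1 and 12 CPM in KO. Their log2 fold changes were -0.0038 (SE 0.088) and -0.0065 (SE 0.107), and ran from -0.068 to 0.072 and from -0.11 to 0.053 with each library left out in turn.

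Psme2 (ENSMUSG00000079197.10, chr14:55587441-55591113, minus strand) has a near copy, Psme2b (ENSMUSG00000078153.3, chr11:48945354-48946190, minus strand). Their coding sequences in GENCODE M21 are 720 bases long each and alike at 715 positions, or 99.3%. The copies are shown over bases 454 to 543 of the coding sequence, because this stretch holds 3 of the 5 differences, which are in capitals, and a read between differences cannot be placed in either gene.
Psme2: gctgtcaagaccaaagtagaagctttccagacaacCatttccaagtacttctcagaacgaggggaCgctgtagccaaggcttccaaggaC
Psme2b: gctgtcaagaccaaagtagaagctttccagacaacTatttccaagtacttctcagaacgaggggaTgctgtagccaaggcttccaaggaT
Psme2 had 313 to 432 counts per library. Psme2b had 2 counts in WT library 1 and 0 in each of the other 5 libraries, where a count of 0 allows up to 3. Of the 50-base stretches of Psme2, 59.3% occur in Psme2b or in the pseudogene Gm7928, so the levels of both genes are uncertain.

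The assembly factors are chaperones that build the particle and then leave it, Psmg1 to Psmg4 on the core and Psmd5, Psmd9 and Psmd10 on the cap ATPases. None of the 7 had an unadjusted p under 0.05 and none had groups that did not overlap. Their median log2 fold change was 0.075, and it was 0.13 without KO library 3. Intervals were wider than for the subunits, with 2 of 7 within 0.25 of 0. Psmg4 had the highest value, with 1.92, 1.88 and 2.49 CPM in WT and 2.45, 2.20 and 2.93 CPM in KO. The groups overlapped, and the log2 fold change was 0.27 (SE 0.175, unadjusted p = 0.15), 0.15 without KO library 3, 0.41 without WT library 3, and 0.078 without WT library 2 and KO library 3 together. Psmd5 had 39.9, 39.8 and 36.9 CPM in WT and 40.5, 40.0 and 35.9 CPM in KO, with library 3 the lowest in both groups, and a log2 fold change of -0.0034 (SE 0.064).

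Psmg1 had 7.45, 6.48 and 6.56 CPM in WT and 7.63, 7.55 and 7.44 CPM in KO, a log2 fold change of 0.14 (SE 0.0997). One WT library, at 7.45 CPM, lay within the KO values. Psmg2, Psmg3, Psmd9 and Psmd10 had log2 fold changes of 0.052, 0.15, 0.075 and -0.093. Psmc3ip, which shares the name prefix alone, had 1.21, 1.5 and 1.34 CPM in WT and 1.61, 1.60 and 1.11 CPM in KO, and 71.6% of its counts on either strand fell on the opposite strand, where it overlaps Mlx.

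The genes differed between libraries in ways that genotype does not describe. KO library 1 was the highest of the 6 libraries for 21 of the 47 genes, or 44.7%, where it was highest for 12.9% of all genes tested. KO library 3 was the lowest for 17 of the 47, or 36.2%, beside 17.7% of all genes. The median deviation of the 47 genes from their means was 0.057 in KO library 1 and -0.031 in KO library 3 on the log2 scale. The highest and the lowest library were thus both KO libraries.

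A list of 30 other genes of the ubiquitin and proteasome pathway was read in the same way. None passed the adjusted threshold. At an unadjusted p under 0.05 there were 5, or 16.7%, with 2 higher (Adrm1 and Ubqln2) and 3 lower in KO (Uchl5, Ecpas and Ngly1), and 9 had groups that did not overlap, or 30%. The share of all genes tested was 7.92% for the first and 14.4% for the second count. The GC content of the longest transcript was 55.4% for Adrm1 and 50.4% for Ubqln2. It was 39.2% for Uchl5, 44.1% for Ecpas and 41.5% for Ngly1. With a correction for GC content the first share was 4.33% of all genes. The part of GC content in the values of this list was not tested. Adrm1, the ubiquitin receptor of the cap whose symbol lacks the Psm prefix, had 38.4, 35.9 and 40.5 CPM in WT and 46.2, 41.6 and 43.7 CPM in KO. All KO libraries were above all WT libraries, and the log2 fold change was 0.20 (SE 0.063, unadjusted p = 0.00889, adjusted p = 0.576 by edgeR). Uchl5, the deubiquitinase that docks on Adrm1, had 25.1, 24.8 and 28.0 CPM in WT and 24.3, 23.6 and 22.0 CPM in KO. Its log2 fold change was -0.16 (SE 0.070, unadjusted p = 0.0458), opposite in sign to that of its docking partner. Ubqln2, a shuttle that brings ubiquitinated proteins to the cap, had 154, 160 and 161 CPM in WT and 176, 167 and 167 CPM in KO, a log2 fold change of 0.10 (SE 0.043). Ecpas, an adaptor that binds the 26S particle, had 237, 237 and 242 CPM in WT and 225, 230 and 218 CPM in KO, a log2 fold change of -0.089 (SE 0.041). Ngly1, which removes sugar chains and is needed to activate the Nfe2l1 protein, had 32.7, 34.5 and 32.7 CPM in WT and 31.6, 27.9 and 30.4 CPM in KO, a log2 fold change of -0.15 (SE 0.063). The groups of these 3 genes did not overlap.

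Nfe2l1 encodes the transcription factor that raises proteasome genes when the proteasome is inhibited. It had 306, 296 and 308 CPM in WT and 316, 313 and 334 CPM in KO, a log2 fold change of 0.082 (SE 0.042, unadjusted p = 0.0785). The groups did not overlap. Pomp, the maturation factor of the core, was at 0.074 on that scale (SE 0.065), and Usp14, a deubiquitinase of the cap, at -0.095 (SE 0.058). The median of the 30 genes was 0.024.

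Promoter sequences were examined to describe what the core and cap subunit genes share in sequence. RefSeq promoter windows of GRCm38.p6 matched 41 of the 49 genes, 25 of them core and cap subunits. Each window had 300 bases, 250 before the RefSeq start site and the rest after it. On both strands, the ETS core CGGAAG was present in 17 of the 25 (68%) and in 18.8% of all 27025 genes in the table. Of the 17, Psma6, Psmb4, Psmc4, Psmd1, Psmd6, Psmd8 and Psmd13 had no match wholly before the first base annotated in GENCODE M21. The 27025 genes were not matched to the 25 in base composition. The CCAAT box was present in 10 of the 25 (40%) and in 41.1% of all genes. The core of the antioxidant response element, TGACNNNGC, to which Nfe2l1 and Nfe2l2 bind, was present in 4 of the 25 (16%) and in 14.0% of all genes. The core of the interferon-stimulated response element was present in 2 of the 25 (8%), in 3.99% of all genes, and in 1 of the 5 interferon-induced genes Psmb8, Psmb9, Psmb10, Psme1 and Psme2. Among the 41 genes with a window it was present in 5 (12.2%). The letters of none of the 4 motifs hold another, though matches can overlap. A match in letters is a description and shows no binding.

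**Figure D5:**
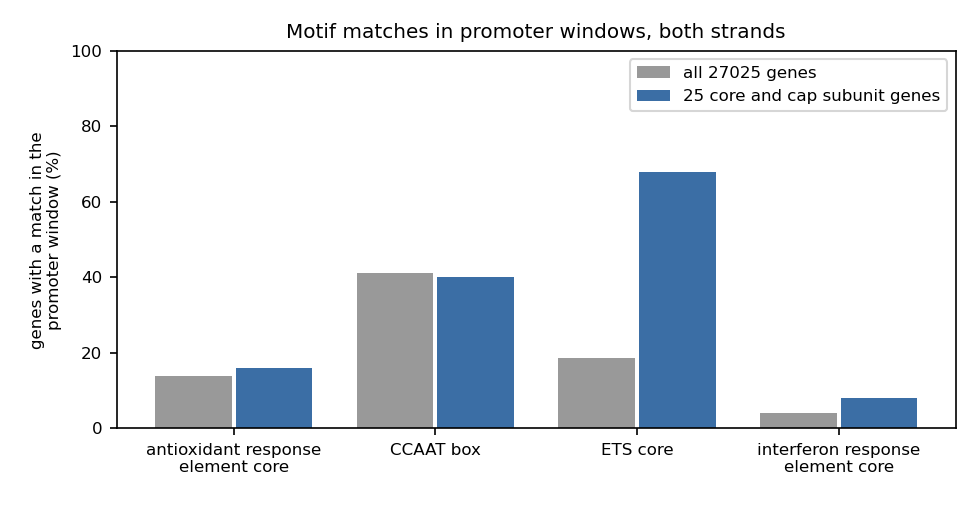
Share of promoter windows with a match to each motif on either strand, for all 27025 genes in the RefSeq table (grey) and for the 25 core and cap subunit genes with a window (blue). The ETS core is in 68% of the 25 against 18.8% of all genes, and the CCAAT box in 40% against 41.1%. The antioxidant response core is in 16% against 14.0%, and the interferon response core in 8% against 3.99%.

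The bases before the start of 4 genes are shown as examples, up to the first base annotated in GENCODE M21, with motif matches in capitals: Psmb5 for its antioxidant response core, Psmd2 and Psmd14 for the ETS core in cap subunits, and Psmg1 because it holds that core more than once. They cover chr14:54618023-54618245 (Psmb5, minus strand), chr16:20651402-20651651 (Psmd2, plus strand), chr2:61711444-61711693 (Psmd14, plus strand) and chr16:95990961-95991210 (Psmg1, minus strand) in GRCm38.p6.
Psmb5: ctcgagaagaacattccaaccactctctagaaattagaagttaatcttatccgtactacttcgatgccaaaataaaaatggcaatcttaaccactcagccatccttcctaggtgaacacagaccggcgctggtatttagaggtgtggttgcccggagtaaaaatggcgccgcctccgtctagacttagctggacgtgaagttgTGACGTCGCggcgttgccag
Psmd2: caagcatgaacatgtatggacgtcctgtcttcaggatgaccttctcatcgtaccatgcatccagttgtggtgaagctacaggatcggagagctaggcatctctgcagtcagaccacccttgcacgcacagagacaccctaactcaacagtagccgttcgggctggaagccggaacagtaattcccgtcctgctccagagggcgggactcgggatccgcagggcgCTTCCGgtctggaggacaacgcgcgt
Psmd14: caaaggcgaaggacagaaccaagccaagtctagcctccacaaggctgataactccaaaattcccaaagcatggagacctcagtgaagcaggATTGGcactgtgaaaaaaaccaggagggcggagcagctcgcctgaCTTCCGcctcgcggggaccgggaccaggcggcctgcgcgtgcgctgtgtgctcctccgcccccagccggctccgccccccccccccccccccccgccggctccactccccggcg
Psmg1: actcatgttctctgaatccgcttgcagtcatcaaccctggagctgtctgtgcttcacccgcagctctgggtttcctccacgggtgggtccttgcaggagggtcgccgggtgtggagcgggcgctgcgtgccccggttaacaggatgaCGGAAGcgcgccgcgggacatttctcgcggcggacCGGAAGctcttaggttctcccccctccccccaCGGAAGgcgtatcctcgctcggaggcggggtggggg
In Psmb5 the match TGACGTCGC begins 47 bases before the RefSeq start site. In Psmd2 the ETS core, read on the other strand as CTTCCG, begins 26 bases before it. Psmd14 has the ETS core 114 and a CCAAT box 159 bases before the start, and Psmg1 has the ETS core at 36, 68 and 103 bases. Psmb5, picked as an example for its TGACNNNGC match, had a log2 fold change of 0.29. The other 5 genes with that motif in their window (Psmb6, Psmc6, Psmd12, Psmd9 and Psme4) had log2 fold changes of 0.056, -0.084, -0.056, 0.075 and -0.036. The part of the motif in these values was not tested.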

How the data were processed

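Long RNA from whole brain was sequenced in 3 WT and 3 TRMT1L KO libraries. Per the labels' protocols, size-selected total RNA went into Illumina TruSeq libraries. The submitters' processing notes name cutadapt 1.9.1 and STAR 2.7.0f. The genome build and annotation are not given in the sources used here, and the 55450 gene identifiers are those of GENCODE M21 (GRCm38), which supplied names, positions and lengths. The authors deposited whole-number read counts per gene, not normalized, for reads counted without strand and on each strand. The column with 94.6% to 94.8% of the stranded counts was used. Genes without enough counts (filterByExpr of edgeR 4.0.16, by group) were left out, which kept 21237. KO was compared with WT by edgeR's quasi-likelihood test with TMM factors on the deposited counts, with Benjamini-Hochberg adjustment over all genes tested and a threshold of 0.05 (R 4.3.3). SEs and 95% confidence intervals came from the same fit. CPM was scaled by TMM, and RPKM divided it by the merged exon length.

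Alternatives were unstranded counts, other scalings and filters, limma 3.58.1, DESeq2 1.42.0, GC or length correction, a replicate block, longest transcripts as length, protein-coding genes alone, and leaving out each library. One that left out WT library 2 and KO library 3 together was added after the values were seen. The gene family was picked by a rule on names, and it, the lists and the tests were chosen with earlier results of these data known. One gene of the marker lists is not reported here. By the rule for named genes, values in every library are given for the gene of each role with the smallest p and the one with the highest RPKM, for Psmb8, Psmb9, Psmb10, Psme1 and Psme2, and for every gene with an unadjusted p under 0.05. For the pathway list it is the genes with an unadjusted p under 0.05. Psmd12, Psmc6, Psmg1, the pathway genes Nfe2l1, Pomp and Usp14, and Tap1 and B2m were named after their values were seen. The labels do not tie a replicate to an animal or litter, so p-values measure the spread between these libraries, and shared replicate numbers were not taken as pairs.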

Additional observations from a re-analysis of the deposited data

How the results depend on the processing

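No proteasome gene had an adjusted p under 0.05 in any of the settings run, and the intervals of Psma8, Psmb8, Psmb9 and Psmc3ip were the widest. An unadjusted p under 0.05 was found for 3 genes, 2 with higher and 1 with lower values in KO. Without a filter on low counts there were 4 (beside 6.73% of all genes), the genes with lower values becoming 2 (Psmb7 and Psmb11). With GC correction there were 2 (beside 4.33% of all genes), Psmb4 and Psmb5, and the genes with lower values were 0. With a replicate block it was 3 (beside 6.85% of all genes), and with a replicate block and GC correction together it was 1 (1 higher, 0 lower, beside 3.73% of all genes). Replicate numbers gave no sign of pairing, since deviations of same-numbered libraries correlated at 0.040, -0.031 and -0.058. Leaving out 1 library gave 1 to 3 genes (1 to 2 higher, 0 to 1 lower), beside 5.5% to 8.58% of all genes tested, and 7 to 15 genes whose groups did not overlap (14.9% to 31.9% of 47, beside 23.1% to 26.2% of all genes), since fewer libraries overlap less often. It gave medians of 0.044 to 0.13 for the assembly factors. Without WT library 2 and KO library 3, chosen after seeing the data, 1 gene had an unadjusted p under 0.05 (0 higher, 1 lower, beside 5.18% of all genes) and 19 had groups that did not overlap (40.4%, beside 35.3% of all genes). Unstranded counts gave WT medians of 14.9 RPKM for the beta ring, 0.387 for the immunoproteasome, 28.1 for ATPases, 18.7 for other cap subunits and 6.55 for activators, with Psmb8 at 2.35% and Psmb10 at 102% of their counterparts. The longest transcript as length gave 28.4, 31.2, 1.02, 38.7, 28.3, 11.0 and 5.36 RPKM for the alpha ring, beta ring, immunoproteasome, ATPases, other cap subunits, activators and assembly factors, and 10.5%, 1.02% and 44.7% for Psmb8, Psmb9 and Psmb10. The cause of each shift was not tested.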

Other observations

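The strand column not used in the comparisons held enough counts to test 13 of the 49 proteasome genes among 10787 genes. None of the 13 had an unadjusted or an adjusted p under 0.05 there by edgeR's quasi-likelihood test, and the lowest adjusted p was 0.954, for Psmb7. Of the counts on either strand, 15.3% of those of Psmb9 and 9.32% of those of Psme1 fell on that strand. The 4 annotated pseudogenes with a Psm name (Psmb5-ps, Psmb6-ps, Psmb6-ps2 and Psmb7-ps2) held 0 to 2 counts in any library.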
